A study of Mus musculus with 9 samples.

Results

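The genes described here are 30 mouse genes of peroxisome biogenesis and peroxisomal oxidation, chosen by name and present in all 4 deposited tables, out of 29386 gene identifiers in all. They comprise 12 peroxins, 6 enzymes of β-oxidation, 6 enzymes that prepare unsaturated or branched chains, 2 membrane transporters, 3 enzymes that act on acyl-CoA esters or carnitine, and catalase. All 30 passed the filter on low values in each of the 3 experiments.

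Peroxisomes are small organelles that shorten very long and branched fatty acids, which mitochondria handle poorly. Peroxins build the organelle: membrane peroxins place its membrane proteins, soluble receptors carry enzymes in, and ubiquitin ligases and an ATPase return the receptors to the cytosol. Inside, acyl-CoAs are oxidised in rounds that end with a thiolase, and catalase removes the hydrogen peroxide that is formed. In brown fat peroxisomes become more abundant in the cold, and many of their genes are targets of PPAR transcription factors.

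RNA was sequenced from brown adipose tissue (BAT) of mice and from cultured primary brown adipocytes. In both, Setdb1, a histone methyltransferase whose mark is tied to silenced chromatin, was deleted or knocked down. In BAT, 2 libraries came from Setdb1 AKO mice, which are Setdb1 fl/fl and Adipoq-Cre+, and 2 from control mice, which are Setdb1 fl/fl and Adipoq-Cre-. Both genotypes thus carried the floxed alleles, and Adipoq-Cre acts in adipocytes, so other cells of the tissue keep Setdb1. No Cre+ mice with intact Setdb1 are in the series, so an effect of Cre itself cannot be told apart from that of the deletion. In culture, Setdb1 flox/flox; Rosa26Cre-ERT2 cells, whose Cre is switched on by 4-hydroxytamoxifen, gave 1 library after 4-OHT (1 μM) and 1 after the ETOH vehicle. No library of 4-OHT on cells without Cre or floxed alleles is in the series, so an effect of the drug cannot be told apart either. In a separate culture experiment, 2 libraries came from cells transfected with siSetdb1 and 1 from cells given the control siRNA siNC. The titles siSetdb1_1 and siSetdb1_2 do not say whether 1 siRNA or 2 different ones were used. These 2 libraries are treated here as replicates. The labels carry no age, sex, housing or strain, do not explain the prefix TN_CE of the BAT titles, and do not say whether replicates came from separate mice or cultures, so the p-values rest on how far these particular libraries lie apart, which may be technical.

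Setdb1 itself was lower in every treated library. Its normalised counts, which are reads times 1 factor per library, were 156 and 191 in Setdb1 AKO BAT and 455 and 473 in control BAT, and it fell by 1.42 on the log2 scale (SE 0.19, limma adjusted p = 0.0216). They were 371 and 399 in siSetdb1 cells and 783.5 in siNC cells, a log2 change of -1.02 that just missed the threshold of 0.05 (limma adjusted p = 0.0526); of 7 settings 5 called it, with adjusted p from 0.000114 to 0.699. In the 4-OHT library 620 reads fell on Setdb1, against 1070 in the ETOH library, a log2 ratio of -0.73. Reads on genes per library lay between 15979479 and 16940622 in BAT, between 17593799 and 18467865 in the siRNA experiment, and at 30176359 for 4-OHT and 29911734 for ETOH. The 7 brown adipocyte markers summed to 7504 to 11500 CPM (reads scaled to an equal library total) in Setdb1 AKO BAT, against 10775 to 12045 in control BAT, to 2403 to 2516 in siSetdb1 cells, against 2630 in siNC cells, and to 799 in 4-OHT cells, against 640 in ETOH cells. In these bulk samples fewer cells of a type and less RNA per cell cannot be told apart.

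The peroxisomal genes differed widely in level, from 0.557 to 504 RPKM in BAT, a unit that divides reads by gene length and by the library total. On this scale per length, Ech1, a dienoyl-CoA isomerase found in peroxisomes and mitochondria, stood highest in BAT, with 504 and 337 in Setdb1 AKO and 462 and 482 in control. Phyh, the phytanoyl-CoA hydroxylase that starts α-oxidation, followed with 325 and 231 in Setdb1 AKO and 246 and 273 in control, and catalase (Cat) came next with 206 and 209.8 in Setdb1 AKO and 186 and 138 in control. Ech1 and Phyh overlapped between the genotypes, and both Setdb1 AKO libraries lay above both controls for Cat. In the 4-OHT and ETOH cells the order began instead with Scp2, which encodes a peroxisomal thiolase and sterol carrier, at 185 in 4-OHT and 144 in ETOH. The lowest levels per length were those of Pex26, the membrane anchor of the receptor-exporting ATPase, and Hacl1, the lyase of α-oxidation, in BAT. Acot4, a peroxisomal thioesterase, was lowest in the siRNA experiment, at 0.719 and 0.673 in siSetdb1 cells and 0.819 in siNC cells. Together the 30 genes took 0.591% and 0.493% of reads in Setdb1 AKO BAT, against 0.525% and 0.471% in control BAT. They took 0.420% and 0.446% in siSetdb1 cells, against 0.440% in siNC cells, and 0.387% in 4-OHT cells, against 0.315% in ETOH cells.

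**Figure D1:**
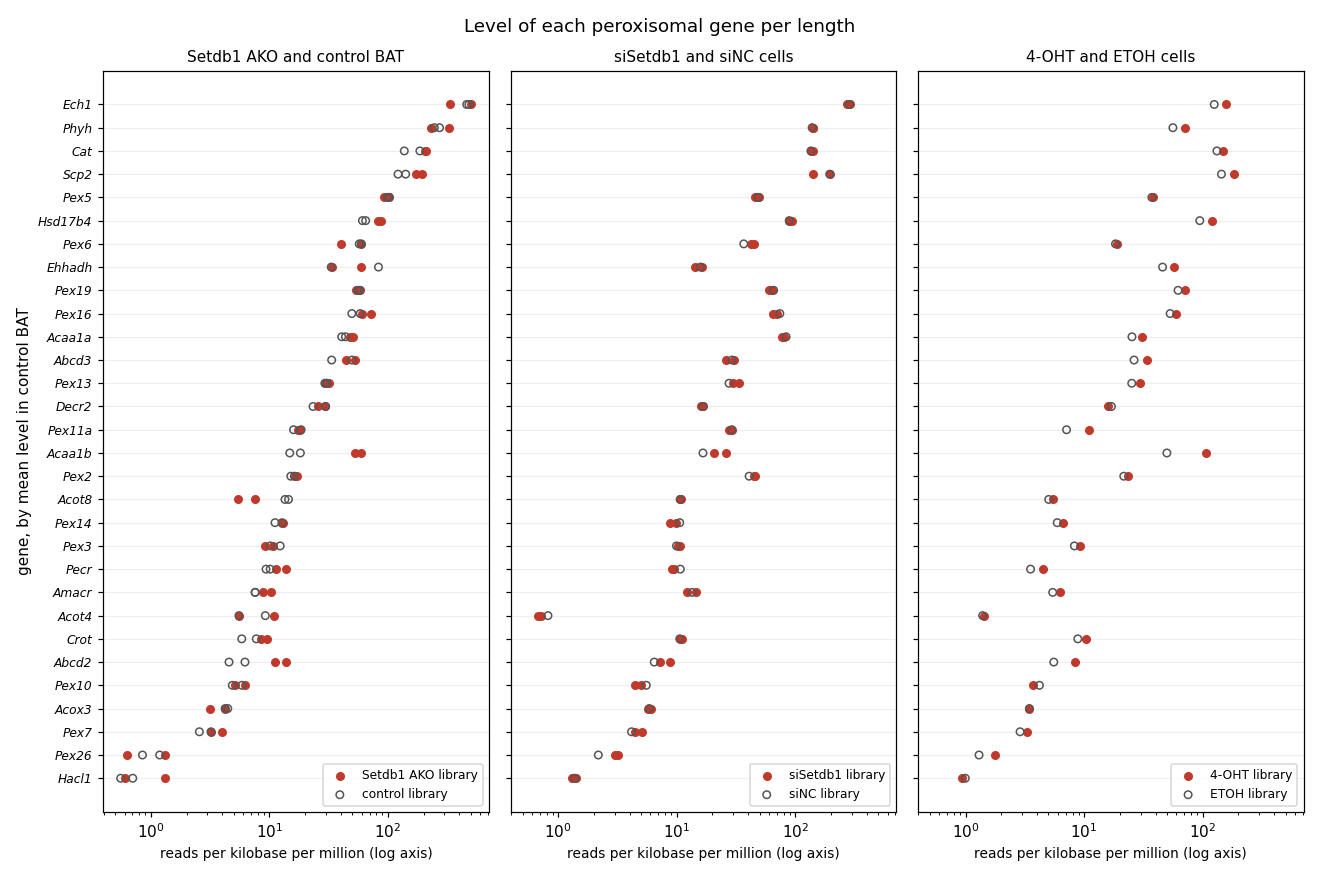
Level of each of the 30 genes in every library, in RPKM on a log axis, ordered by the mean of the control BAT libraries; filled points are Setdb1 AKO, siSetdb1 and 4-OHT libraries and open points their controls. Filled and open points lie close together for most genes. In BAT Acaa1b and Abcd2 are set apart to the right, for Acaa1b at 52.5 and 59.4 in Setdb1 AKO against 18.3 and 14.9 in control. Acot8 is set apart to the left in BAT, at 7.52 and 5.43 in Setdb1 AKO against 13.5 and 14.5 in control. In the 4-OHT panel Acaa1b also lies to the right, at 107 in 4-OHT cells against 49.9 in ETOH cells.

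In BAT, 2 of the 30 genes rose in Setdb1 AKO mice, against 1.68% of all genes called in either direction, and none was called lower. Acaa1b, a peroxisomal thiolase, was 3.58-fold higher, and Abcd2, a membrane transporter of very long chain and polyunsaturated acyl-CoAs, 2.47-fold higher. Of the 14466 genes tested, 1.00% were called higher and 0.677% lower (limma on log2(normalised count + 1), Benjamini-Hochberg adjusted p under 0.05). The edgeR test called the same 2 genes, against 1.73% of all genes. Among the 30, 0 were called lower by limma and by edgeR, and 1, Acot8, had an unadjusted limma p under 0.05 with a lower level. DESeq2 called Acot8 too, and so 3 of the 30, against 4.50% of all genes. At an unadjusted p under 0.05, 7 of the 30 passed in limma, against 17.7% of all genes. The other genes shifted less, and mostly upward: 23 of 30 had a fitted change above 0, against 50.6% of all genes, and the median log2 change was 0.18, against 0.01 over all genes. For 15 of the 30 both Setdb1 AKO libraries lay above both controls, against 25.1% of all genes, and for 1 they lay below, against 24.9%. Scaled to CPM these were 11 and 1, against 18.6% and 31.6%. The median rested on both Setdb1 AKO libraries unequally, at 0.13 without replicate 1 and 0.35 without replicate 2. Moving with it, all 10 fibroblast and preadipocyte markers had a fitted change above 0 in Setdb1 AKO BAT, with a median of 0.25 and 2 called higher, and their summed level was 658 to 936 CPM, against 661 to 764 in control. Of the 9 general adipocyte markers, 7 were above 0, with a sum of 17504 to 19863 in Setdb1 AKO and 16742 to 17561 in control. All 3 erythroid markers past the filter were above 0, with a median of 0.53 and none called, and the list summed to 733 to 738 CPM in Setdb1 AKO BAT, against 504 to 542 in control BAT, without overlap. The 5 endothelial markers summed to 486 to 515 CPM in Setdb1 AKO BAT, against 527 to 543 in control BAT. Their part in the result was not tested.

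**Figure D2:**
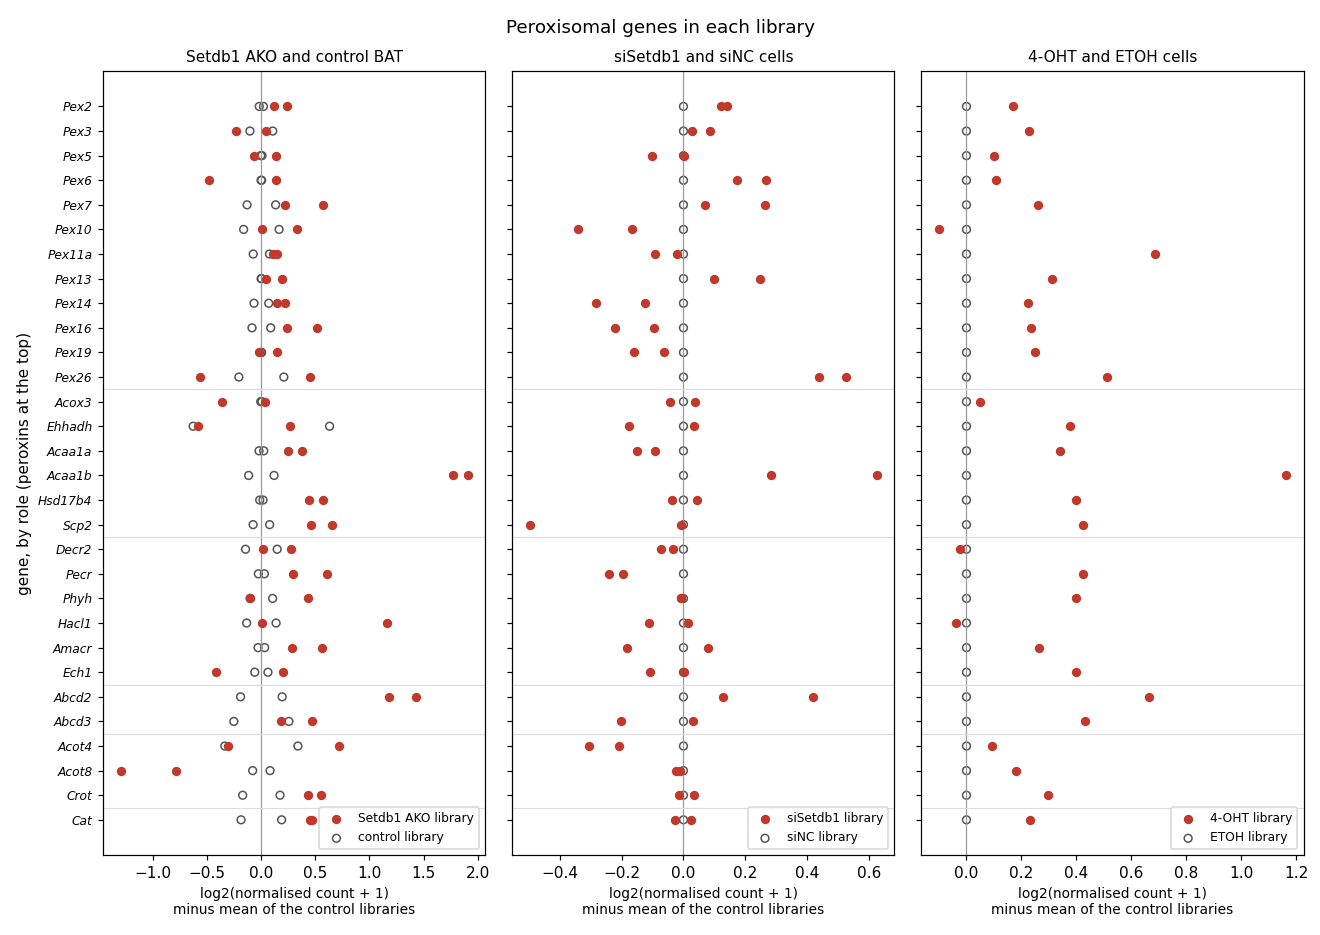
Each gene in each library as log2(normalised count + 1) minus the mean of the control libraries of its experiment, with genes grouped by role and separate horizontal scales per panel; filled points are Setdb1 AKO, siSetdb1 and 4-OHT libraries, open points their controls. In BAT the filled points of Acaa1b and Abcd2 lie farthest right and those of Acot8 farthest left, and in the 4-OHT panel 27 of 30 points lie right of 0.

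Acaa1b showed the widest gap between the genotypes in BAT. Its normalised counts were 1757 and 1931 in Setdb1 AKO BAT and 557 and 473 in control BAT, so that every Setdb1 AKO library stood above every control. The fitted log2 change was 1.84 (SE 0.16, limma adjusted p = 0.00337). The call was lost without control replicate 1 (adjusted p = 0.0827), without control replicate 2 (0.0991) and with no filter on low values (0.121), with log2 changes of 1.96, 1.72 and 1.84. In siSetdb1 cells the values were 724 and 919, against 595 in siNC cells. Both siSetdb1 libraries were thus above the control, with a log2 change of 0.45 that did not pass (SE 0.16, limma adjusted p = 0.935), 0.28 and 0.63 for the single libraries. In 4-OHT cells 6319 reads fell on Acaa1b, against 2927 in ETOH cells, a log2 ratio of 1.16 with a 95% interval for counting error of 1.099 to 1.227. Per length it stood at 107 RPKM in 4-OHT cells and 49.9 RPKM in ETOH cells, beside 52.5 and 59.4 RPKM in Setdb1 AKO BAT and 20.5 and 26.1 RPKM in siSetdb1 cells, across tables that were scaled apart.

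Acaa1b lies on the minus strand at chr9:119148023-119157093 (GRCm38), near its close relative Acaa1a at chr9:119339676-119350299 on the plus strand. The deposited tables give each its own row, but 40.01% of the 31-base words of Acaa1b transcripts also occur in Acaa1a, and 16.89% of those of Acaa1a in Acaa1b. How the counting treated reads that map to both is not stated, so the division of reads between them is uncertain. Acaa1a had 3847 and 3509.9 normalised counts in Setdb1 AKO BAT and 3006 and 2917 in control BAT, a log2 change of 0.31 that was not called (SE 0.15, limma adjusted p = 0.323). The sum over both thiolases does not depend on that division if each shared read was counted once, which is not known. This sum was 5604 and 5441 in Setdb1 AKO BAT, against 3563 and 3389.7 in control BAT. Acaa1b made up 31.3% and 35.5% of that sum in Setdb1 AKO BAT, against 15.6% and 13.9% in control BAT. Its share was 10.3% and 13.2% in siSetdb1 cells, against 8.13% in siNC cells, and 60.8% in 4-OHT cells, against 46.7% in ETOH cells. The share was higher in every treated library than in its control, while the sum was not: in siSetdb1 cells it was 7029 and 6977, against 7321 in siNC cells.

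The promoters of the thiolase pair are shown because the genes share transcript sequence and had unlike fitted changes in BAT, a difference that was not itself tested. Each window runs from 250 bases before to 50 after a RefSeq start site (GRCm38.p6), 5′ to 3′ on the gene's strand, with CCAAT and its reverse complement ATTGG in capitals. The Acaa1b window is chr9:119157044-119157343 (minus strand), and the Acaa1a window chr9:119341044-119341343 (plus strand), which lies inside the span the tables give for that gene.
Acaa1b: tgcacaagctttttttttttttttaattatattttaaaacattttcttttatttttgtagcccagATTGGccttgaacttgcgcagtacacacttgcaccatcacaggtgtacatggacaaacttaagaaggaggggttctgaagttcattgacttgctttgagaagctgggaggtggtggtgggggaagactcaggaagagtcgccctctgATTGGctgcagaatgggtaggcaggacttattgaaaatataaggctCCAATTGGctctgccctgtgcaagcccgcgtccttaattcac
Acaa1a: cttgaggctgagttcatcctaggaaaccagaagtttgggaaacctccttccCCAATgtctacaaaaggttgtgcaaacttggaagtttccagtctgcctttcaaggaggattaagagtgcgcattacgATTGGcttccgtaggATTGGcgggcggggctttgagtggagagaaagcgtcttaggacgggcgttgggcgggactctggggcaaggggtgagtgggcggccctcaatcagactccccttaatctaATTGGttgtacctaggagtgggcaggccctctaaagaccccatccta
Each window held 4 matches to CCAAT on either strand, with the CCAATTGG of Acaa1b counted once on each strand. At least 1 match occurred in 13 of the 29 windows found for 25 of the 30 genes. That is 44.8%, against 37.4% of 32851 mouse windows of the same length. At least 2 matches occurred in 17.2% of the 29 windows, against 11.7% of all. At least 3 occurred in 4 of the 29 (Acaa1a, Acaa1b, Acot8 and Cat), 13.8%, against 3.37%. These differences in share were not tested. The windows differed in CpG dinucleotides, 4 in Acaa1b and 10 in Acaa1a, against a median of 16 over the windows of the 30 genes and 7 over all windows. The AGGTCANAGGTCA direct repeat of PPAR binding, searched on both strands, was in 0 of the 29 windows and in 0.0396% of all windows. The exact repeat is so rare that its absence from 29 windows does not show a lack of PPAR sites. No window was found for Abcd2, Amacr, Hsd17b4, Pex19 and Pex2.

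Dlec1, whose last exon overlaps that of Acaa1b on the opposite strand, rose as well in BAT. The last 224 bases of Acaa1b exon sequence, 11.42% of its length, are also Dlec1 exon. Dlec1 had 154 and 125 normalised counts in Setdb1 AKO BAT and 15.6 and 17.2 in control BAT (log2 change 3.01, SE 0.32, limma adjusted p = 0.00763). In cells it stayed low, with 27.4 and 19.3 in siSetdb1 cells and 21.7 in siNC cells, and with 30 reads in 4-OHT cells and 37 in ETOH cells, while Acaa1b had 6319 and 2927 there. The counting is not stated to use strand, so reads in the shared stretch cannot be told apart. No other measured gene within 100 kb of Acaa1b was called in BAT. The log2 changes of these other genes ran from 0.05 for Oxsr1 to 0.96 for Vill.

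Abcd2 was the other gene to rise in BAT. It had 1142 and 1359.8 normalised counts in Setdb1 AKO BAT and 575 and 440.3 in control BAT, without overlap between the genotypes. The log2 change was 1.31 (SE 0.19, limma adjusted p = 0.0253). This call was lost without Setdb1 AKO replicate 2 (adjusted p = 0.0794), without control replicate 1 (0.162), without control replicate 2 (0.247) and with no filter (0.234), with log2 changes of at least 1.11. In culture it had 764 and 936 in siSetdb1 cells and 699.6 in siNC cells (log2 change 0.27, SE 0.15, limma adjusted p = 0.941), and 1506 reads in 4-OHT cells, against 986 in ETOH cells (log2 ratio 0.66, interval 0.55 to 0.78). Every treated library again stood above its control. Abcd2 (chr15:91145871-91191799, minus strand) shares 1.39% of its 31-base words with other genes. Neither Slc2a13 nor Kif21a, its neighbours within 100 kb, was called in BAT. The log2 change was 1.15 for Slc2a13 (limma adjusted p = 0.381) and -0.39 for Kif21a (limma adjusted p = 0.498). The related transporter Abcd3, which carries branched and dicarboxylic acyl-CoAs, was more abundant, at 5915 and 4845 in Setdb1 AKO BAT and 5102 and 3585 in control BAT. Its genotypes overlapped, and its log2 change of 0.32 did not pass (limma adjusted p = 0.479).

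**Figure D3:**
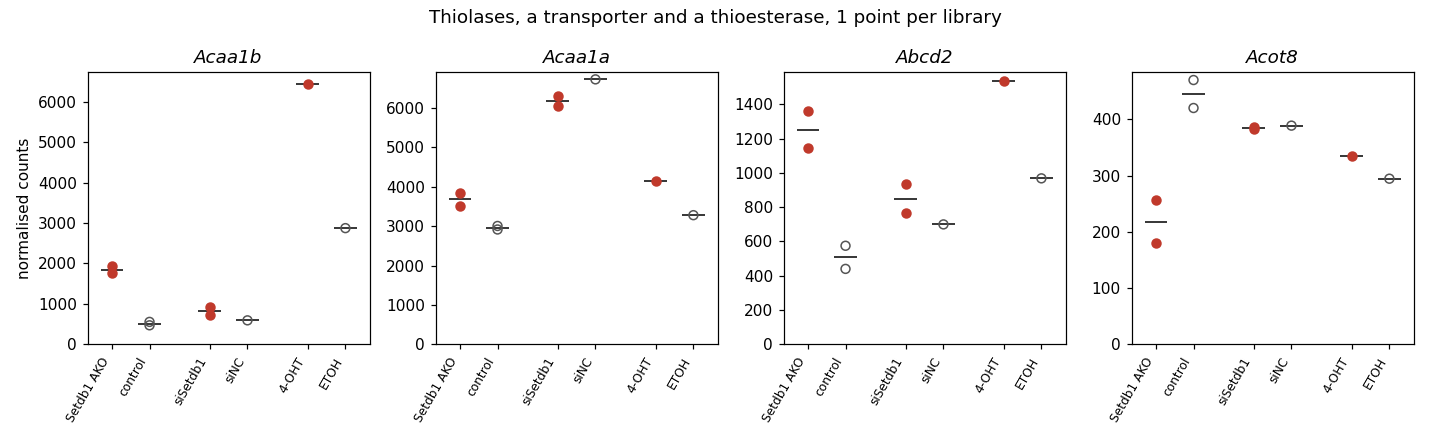
Normalised counts of Acaa1b, Acaa1a, Abcd2 and Acot8, with 1 point per library and a bar at the group mean; filled points are Setdb1 AKO, siSetdb1 and 4-OHT libraries, open points the control, siNC and ETOH libraries, and the tables of the experiments were scaled apart. Acaa1b and Abcd2 lie higher in every treated library than in its control, while Acot8 is at 256 and 179.5 in Setdb1 AKO BAT against 420.1 and 469.8 in control BAT and nearly level in siSetdb1 and siNC cells.

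Among the β-oxidation enzymes other than the thiolase pair, none was called in BAT. Hsd17b4, the bifunctional enzyme for branched and very long chains, had 5035 and 4611 normalised counts in Setdb1 AKO BAT and 3434 and 3362 in control BAT (log2 change 0.50, SE 0.15, limma adjusted p = 0.147). Scp2 had 11409 and 9930.3 in Setdb1 AKO BAT and 7632 and 6864 in control BAT (log2 change 0.56, SE 0.17, limma adjusted p = 0.160). Both were above both controls, short of the threshold over all genes. In siSetdb1 cells Hsd17b4 had 5377 and 5682, against 5515 in siNC cells, and Scp2 had 8759.7 and 12294, against 12364. Of the Scp2 words, 33.38% also occur in the pseudogene Scp2-ps2, so its reads may be split. Ehhadh, the classical bifunctional enzyme, varied more within a genotype than between them, with 2999 and 1660.0 in Setdb1 AKO BAT and 3858 and 1608 in control BAT. Acox3, an acyl-CoA oxidase for branched chains, had 617 and 812 in Setdb1 AKO BAT and 798 and 791 in control BAT. Over the 6 enzymes 4 had a fitted change above 0 in BAT, with a median log2 change of 0.41, 2 of 6 in siSetdb1 cells, with a median of -0.04, and 6 of 6 in 4-OHT cells, with a median of 0.39.

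None of the 6 enzymes that prepare unsaturated or branched chains passed in BAT. Pecr, a peroxisomal enoyl-CoA reductase, had 359 and 288 normalised counts in Setdb1 AKO BAT and 239 and 230.3 in control BAT (log2 change 0.45, SE 0.19, limma adjusted p = 0.287). Amacr, the racemase that turns branched acyl-CoAs into the form that oxidases accept, had 463 and 383 in Setdb1 AKO BAT and 307 and 321 in control BAT (log2 change 0.42, SE 0.18, limma adjusted p = 0.282). For both, each Setdb1 AKO library was above each control. Phyh, Ech1, Hacl1 and Decr2, a dienoyl-CoA reductase, overlapped between the genotypes. Hacl1 had the largest fitted change of this group, 0.59, but its Setdb1 AKO libraries stood at 111 and 49.5, against 54.1 and 44.6 in control BAT (limma adjusted p = 0.519). Hacl1 also shares 31.14% of its exon bases with Gm49387 on the same strand. In siSetdb1 cells the fitted change was below 0 for 6 of 6 genes of this group, between -0.22 and -0.01, and in 4-OHT cells it was above 0 for 4 of 6.

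Acot8, a peroxisomal thioesterase of broad chain length, was the gene that stood lower in Setdb1 AKO BAT. Its normalised counts were 256 and 179.5 in Setdb1 AKO BAT and 420.1 and 469.8 in control BAT, with no overlap. The log2 change was -1.05 (SE 0.22), which limma did not call (adjusted p = 0.0738) and DESeq2 did (adjusted p = 0.00963). Over 13 settings the adjusted p lay between 0.00963 and 0.429, and 1 setting called it. In the authors' deposited table Acot8 had an adjusted p of 0.013, beside 5.56e-15 for Acaa1b and 6.13e-06 for Abcd2, and these were 3 of the 30 genes under 0.05 there, against 2.54% of the genes in that table. In culture Acot8 was nearly level, with 382 and 386 in siSetdb1 cells and 389 in siNC cells, and 328 reads in 4-OHT cells, against 300 in ETOH cells. Acot8 (chr2:164792765-164804882, minus strand) shares 246 exon bases, 12.32%, with Snx21 on the opposite strand, which had a log2 change of -0.26 in BAT (limma adjusted p = 0.487). On its other side Zswim3 starts 216 bases away on the opposite strand. Zswim3 had 61.7 and 37.1 in Setdb1 AKO BAT and 106 and 91.3 in control BAT, a log2 change of -1.03 that was not called (SE 0.33, limma adjusted p = 0.179). The promoter window of Acot8, chr2:164804832-164805131 (minus strand, GRCm38.p6 from RefSeq), is shown because it also spans the Zswim3 start, with CCAAT in capitals.
Acot8: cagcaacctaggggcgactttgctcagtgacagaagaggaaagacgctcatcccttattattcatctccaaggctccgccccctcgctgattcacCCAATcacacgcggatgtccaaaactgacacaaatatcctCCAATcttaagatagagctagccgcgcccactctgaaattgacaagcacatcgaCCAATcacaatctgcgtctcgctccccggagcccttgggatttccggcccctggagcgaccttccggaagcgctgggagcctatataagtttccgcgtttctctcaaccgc
It held 3 matches to CCAAT and 19 CpG dinucleotides.

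The other enzymes of this kind were not called. Crot, the carnitine octanoyltransferase that passes shortened chains on, had 789 and 856 normalised counts in Setdb1 AKO BAT and 658 and 517 in control BAT (log2 change 0.49, SE 0.18, limma adjusted p = 0.207). Acot4 had 1244 and 614 in Setdb1 AKO BAT and 959 and 599.6 in control BAT, with overlap. Cat had 9169 and 9083 in Setdb1 AKO BAT and 7556 and 5826 in control BAT (log2 change 0.46, SE 0.18, limma adjusted p = 0.257). Crot and Cat thus lay above both controls, with the controls farther apart than the Setdb1 AKO libraries. In siSetdb1 cells Crot had 1045 and 1080.4, against 1055 in siNC cells, and Cat 6329 and 6566, against 6451, so siNC lay between the siSetdb1 libraries for both.

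None of the 12 peroxins was called in BAT. Their fitted changes ran from -0.17 for Pex6, the receptor-exporting ATPase, to 0.39 for Pex7, with a median of 0.12, beside a median of 0.37 over the other 18 genes; the difference between these medians was not tested. For 6 of the 12 both Setdb1 AKO libraries lay above both controls, against 25.1% of all genes. Pex16, which takes part in placing membrane proteins, had 2169 and 1790.0 normalised counts in Setdb1 AKO BAT and 1611 and 1429 in control BAT (log2 change 0.38, SE 0.16, limma adjusted p = 0.287). Pex7, the receptor that imports thiolase and Phyh, had 817 and 641 in Setdb1 AKO BAT and 605 and 503 in control BAT (log2 change 0.39, SE 0.19, limma adjusted p = 0.337). Pex5, the main import receptor, was nearly level, with 6932 and 6008 in Setdb1 AKO BAT and 6285 and 6335 in control BAT. Pex6 had 3868 and 2518 in Setdb1 AKO BAT and 3516 and 3528 in control BAT, a spread within Setdb1 AKO wider than the gap between the genotypes. Pex3, Pex10, Pex19 and Pex26 also overlapped, and the 4 had fitted changes between -0.10 and 0.17.

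In the siRNA experiment none of the 30 genes was called. Over all 15224 genes tested 0.0394% were called in either direction by limma. At an unadjusted p under 0.05, 2 of the 30 passed in limma (Pex26 and Acaa1b), against 5.06% of all genes, and edgeR and DESeq2 called 0 of the 30, against 0.243% and 0.0723% of all genes. The fitted change was above 0 for 10 of the 30, against 49.3% of all genes. For 8 of the 30 both siSetdb1 libraries lay above siNC, against 34.1% of all genes, and for 12 they lay below, against 33.8%; scaled to CPM these were 10 and 8, against 37.7% and 30.5% of all genes. The median log2 change was -0.05, against -0.003 over all genes, and it was -0.003 without siSetdb1 replicate 1 and -0.0264 without siSetdb1 replicate 2. The 7 macrophage markers past the filter had a median of -0.68, and their list summed to 23.87 to 25.96 CPM in siSetdb1 cells, against 47.5 in siNC cells; their part in these values was not tested. With 1 residual degree of freedom, the fit takes the spread of the lone siNC library to equal that of the siSetdb1 pair.

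Pex26 had the largest fitted change here, with 324 and 306 normalised counts in siSetdb1 cells and 225 in siNC cells (log2 change 0.48, SE 0.18, limma adjusted p = 0.938). Pex6, which Pex26 anchors, had 2868 and 3062 in siSetdb1 cells and 2543 in siNC cells (log2 change 0.22, SE 0.11, limma adjusted p = 0.941). Pex14, a docking peroxin, had 1112 and 995 in siSetdb1 cells and 1211 in siNC cells (log2 change -0.20, SE 0.13, limma adjusted p = 0.941). Pex14 shares 28.32% of its exon bases with the antisense gene Gm17029. All 3 lay on 1 side of siNC in both libraries without passing the test. The other 9 peroxins had changes between -0.25 (Pex10) and 0.17 (Pex13).

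In the 4-OHT experiment 27 of the 30 genes had a log2 ratio above 0, against 51.7% of all 13969 genes described, and the median was 0.26, against 0.01 over all genes. With 1 library per group there is no test and no replicate check. Past 1.5-fold were 3 genes, all higher in 4-OHT cells, against 4.21% of all genes higher and 6.12% lower by that much. Besides Acaa1b and Abcd2 this was Pex11a, a peroxin of membrane elongation and division, with 1048 reads in 4-OHT cells and 676 in ETOH cells (log2 ratio 0.68, interval 0.54 to 0.83). Pex11a did not stand out elsewhere, with 939 and 959.5 normalised counts in Setdb1 AKO BAT and 915 and 825 in control BAT, and 1665 and 1585 in siSetdb1 cells and 1689 in siNC cells. Just short of that size was Pex26, with 303 reads in 4-OHT cells and 220 in ETOH cells (log2 ratio 0.51, interval 0.26 to 0.77). Hsd17b4, Scp2, Phyh, Ech1, Pecr, Abcd3 and Ehhadh had ratios between 0.38 and 0.43. The 3 genes at or below 0 were Pex10, a ubiquitin ligase peroxin, Hacl1 and Decr2, between -0.10 and -0.02, with intervals that include 0.

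Marker genes of several cell types differed between these 2 libraries too. All 9 general adipocyte markers had ratios above 0, with a median of 0.41, and summed to 12935 CPM in 4-OHT cells, against 10393 in ETOH cells. All 8 macrophage markers were below 0, with a median of -0.59, and summed to 1924 in 4-OHT cells, against 3459 in ETOH cells. Of the 7 fibroblast and preadipocyte markers past the filter, 6 were below 0, and the list summed to 10646 in 4-OHT cells, against 12169 in ETOH cells. The part of these differences in the ratios of the peroxisomal genes was not tested. Scaled to CPM, 26 of the 30 genes were above 0, against 41.3% of all genes.

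**Figure D4:**
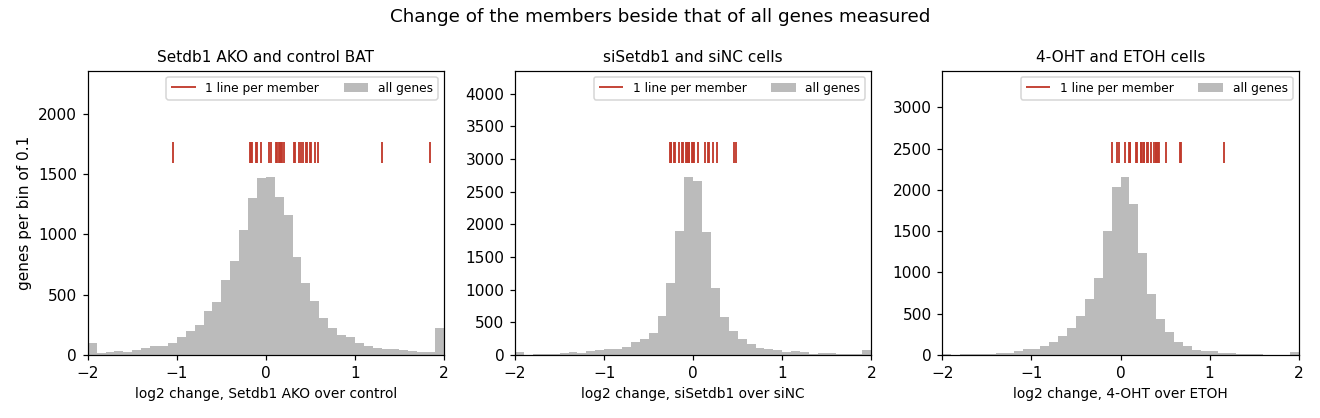
Distribution of the log2 change over all genes measured in each experiment (grey, bins of 0.1, with changes beyond 2 in either direction placed in the outermost bins) and the change of each of the 30 genes (1 line each, its height without meaning). The lines centre at 0.18 in BAT, at -0.05 in the siRNA experiment and at 0.26 in the 4-OHT experiment, where 27 of 30 lie right of 0.

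Across the 3 experiments, 5 of the 30 genes were higher in every treated library than in every control: Acaa1b, Abcd2, Pex2, Pex7 and Pex13. Of the 12215 genes measured in all 3 experiments 6.38% did so, and 5.13% were lower in every treated library, which held for 0 of the 30. Pex2, a ubiquitin ligase peroxin, had 665 and 613 normalised counts in Setdb1 AKO BAT, against 573 and 558 in control BAT, and 1858 and 1835 in siSetdb1 cells, against 1686 in siNC cells. Pex13, a docking peroxin, had 2521 and 2272 in Setdb1 AKO BAT, against 2206 and 2213 in control BAT, and 2505 and 2776 in siSetdb1 cells, against 2337 in siNC cells. Their log2 ratios in 4-OHT cells were 0.17 and 0.31, and that of Pex7 was 0.26. These 3 peroxins had small changes that no test called, between 0.12 and 0.39. Scaled to CPM, 4 genes did so (Acaa1b, Abcd2, Pex2 and Crot), against 4.55% of all genes.

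Other genes of the organelle and its regulators, 54 listed beside the 30 with 45 past the filter in BAT, were measured the same way. In BAT 3 were called higher and 0 lower, at the same background of 1.00% and 0.677%, and 27 of the 45 had a fitted change above 0, with a median of 0.04. All 3 belonged to the list of other lipid oxidation and CoA genes, of which 15 passed the filter. Eci2, an enoyl-CoA isomerase of peroxisomes and mitochondria, had 32559.7 and 31106 normalised counts in Setdb1 AKO BAT and 1909 and 1719 in control BAT (log2 change 4.13, SE 0.16, limma adjusted p = 0.000105). Its close relative Eci3 had 263 and 187 in Setdb1 AKO BAT and 253 and 250.6 in control BAT, and how reads that map to both were divided is not stated. Eci2 also shares 189 exon bases, 3.41%, with Gm16984 on the opposite strand. Gm16984 had 84.4 and 64.0 in Setdb1 AKO BAT and 22.0 and 6.09 in control BAT. Its log2 change was 2.54 (SE 0.58, limma adjusted p = 0.0868), and 3 of 13 settings called it. Idh1, which makes NADPH in the cytosol and in peroxisomes, had 3749.7 and 3807 in Setdb1 AKO BAT and 2119.8 and 1963 in control BAT (log2 change 0.89, SE 0.14, limma adjusted p = 0.0351). Nudt7, a hydrolase of peroxisomal CoA, had 1294 and 1417 in Setdb1 AKO BAT and 785 and 689 in control BAT (log2 change 0.88, SE 0.15, limma adjusted p = 0.0441). For Eci2, Idh1 and Nudt7 the genotypes did not overlap. The call of Eci2 held in 13 of 13 settings, that of Idh1 in 7 and that of Nudt7 in 6. Idh1 and Nudt7 lost it when any 1 of the 4 libraries was left out, with adjusted p between 0.0512 and 0.344 for Idh1 and between 0.0602 and 0.357 for Nudt7.

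Among the other lists, 10 of the 15 further biogenesis, membrane and fission genes past the filter had a fitted change above 0 in BAT, 2 of the 4 ether lipid genes and 3 of the 5 oxidase and redox genes, and none was called. Of the 6 PPAR and coactivator genes 3 were above 0, with a median of 0.02. In the siRNA experiment 0 of the 42 genes past the filter were called, and 17 had a fitted change above 0. In 4-OHT cells 37 of 41 had a ratio above 0, with a median of 0.25, the 6 PPAR and coactivator genes among them. Past 1.5-fold were Eci2, with 7991 reads in 4-OHT cells and 2548 in ETOH cells (log2 ratio 1.70), and Ephx2, the soluble epoxide hydrolase, with 15396 reads in 4-OHT cells and 9703 in ETOH cells (log2 ratio 0.72).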

How the data were processed

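Polyadenylated RNA of 9 libraries was sequenced (NEBNext Ultra II, per the labels' protocols). The submitters' processing notes name GRCm38, DESeq2 1.36.0, featureCounts 2.0.3, STAR 2.7.10a and Trimmomatic 0.39. The annotation release, strand setting and treatment of reads that map to several places are not given in the sources used here. For BAT and siRNA the authors deposited a signal per gene, in which the reads of a library are all multiplied by the same factor. Per the file headers, the 4-OHT table has raw counts beside the signal and FPKM, which was not used. The authors' log2 fold changes and p-values stand in every deposited table.

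Whole reads were recovered from the scaled signal, with at least 99.996% of values within 0.05 reads of a whole number. The siRNA tables were joined through their shared siNC library, with a link factor of 1.0024. BAT and siRNA were tested with limma 3.58.1 (lmFit, eBayes with trend; R 4.3.3) on log2(normalised count + 1), keeping genes that reached 10 normalised counts in 2 or more BAT libraries, or in 1 siRNA library, with Benjamini-Hochberg adjustment over all genes at 0.05. A fold change on this scale understates changes of low genes. The 4-OHT ratio used TMM-scaled CPM with a prior count of 2, for genes that reached 50 counts in either library. Alternatives were edgeR 4.0.16 quasi-likelihood and DESeq2 1.42.0 on recovered reads, other scalings, pseudocounts and filters, each library left out, and the replicate number as a block. The fits were tested on simulated data.

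The 30 genes and all lists were chosen with earlier results of these data known. Named were Setdb1, genes called in BAT or siRNA, the 10 smallest limma p in BAT and 5 in siRNA, genes past 1.5-fold in 4-OHT, genes on the same side in all 3 experiments and pathway genes called; others where a result turned on them. Overlaps and shared 31-base words came from GENCODE transcripts, whose spans equal the deposited ones for 29 of the 30 genes, and promoters from RefSeq (GRCm38.p6).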

Additional observations from a re-analysis of the deposited data

Results flagged for a closer look

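Of the 30 genes, 6 had every Setdb1 AKO library above every control in BAT and every siSetdb1 library below siNC in culture, which is 20% of them, against 15.1% of all genes measured in the 3 experiments. This difference between the experiments was not tested, and tissue and cells came from separate experiments. Scp2, the peroxisomal thiolase and sterol carrier, had a log2 change of 0.56 in BAT and -0.25 in siRNA, where siSetdb1 replicate 2 was close to siNC. Pecr, the enoyl-CoA reductase, had 0.45 in BAT and -0.22 in siRNA, and Acaa1a, the thiolase, had 0.31 and -0.12. Of the peroxins, Pex16 had 0.38 in BAT and -0.16 in siRNA, Pex14 had 0.18 and -0.20, and Pex11a had 0.13 and -0.06. Scaled to CPM, Pex16, Acaa1a and Pecr still lay on opposite sides, and Pex11a, Pex14 and Scp2 did not in at least 1 of the experiments.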

How the results depend on the processing

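In BAT the count of peroxisomal genes called was 2 with edgeR and with other scalings or pseudocounts, 3 with DESeq2 and 0 with no filter on low values, where 22721 genes were tested. Leaving out 1 library gave 0 to 2 calls and a median log2 change between 0.13 and 0.35. The labels do not say whether replicate numbers pair the BAT libraries. Deviations of Setdb1 AKO replicate 1 and control replicate 1 from their group means had a correlation of -0.015 over the genes tested. This value does not exclude a pairing. With the replicate block 2 of the 30 were called, the same genes, with a median of 0.18. Of the pathway genes Nudt7 was lost with the block (limma adjusted p = 0.0512). With edgeR and the block Nudt7 (edgeR adjusted p = 0.0546) and Idh1 (edgeR adjusted p = 0.0572) were lost. In siRNA the count was 0 under every setting run, and single libraries gave medians of -0.0264 and -0.003. In 4-OHT 3 genes passed 1.5-fold under every setting run, but these settings could hardly move them. The deposited scaling gave the same ratios as TMM, and a count filter leaves a ratio unchanged. The prior count matters little for genes with this many reads. Precision is limited by 2 libraries a group in BAT, 1 control in siRNA and 1 library a group in 4-OHT, and by depth for genes with few reads.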

Other observations

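In BAT several enzyme genes separated the libraries by replicate number and not by genotype. Ehhadh had 2999 normalised counts in Setdb1 AKO replicate 1 and 3858 in control replicate 1, against 1660.0 in Setdb1 AKO replicate 2 and 1608 in control replicate 2. Acot4 had 1244 in Setdb1 AKO replicate 1 and 959 in control replicate 1, against 614 in Setdb1 AKO replicate 2 and 599.6 in control replicate 2. Acot5, a related thioesterase on the same chromosome, had 161 in Setdb1 AKO replicate 1 and 329 in control replicate 1, against 29.9 in Setdb1 AKO replicate 2 and 71.0 in control replicate 2. These 3 genes were picked once their values had been seen, and the share of all genes that separate this way was not counted. The labels do not say that a number marks a shared litter, batch or day.

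Of the pathway genes that limma did not call in BAT, Tmem135, a membrane protein linked to peroxisomes in mice, had 4036 and 4249 normalised counts in Setdb1 AKO and 3049 and 2479 in control (log2 change 0.59, SE 0.16, adjusted p = 0.130). Tysnd1, the protease that trims imported peroxisomal enzymes, had 4156 and 3129 in Setdb1 AKO and 5541 and 5142 in control (log2 change -0.57, SE 0.18, adjusted p = 0.178). Acot6, with few reads, had 36.0 and 25.8 in Setdb1 AKO and 129 and 71.0 in control. Its log2 change was -1.62 (SE 0.39, limma adjusted p = 0.0949), and 1 of 13 settings called it. Each of these genes separated the genotypes without passing the limma threshold. Of all genes tested in BAT, 25.1% had both Setdb1 AKO libraries above both controls and 24.9% had both below.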
